A study of Homo sapiens with 17 samples.

Results

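The ZNF genes are the genes whose symbol is ZNF followed by a number, a naming class given to proteins with zinc finger domains. The members were all genes of the deposited expression table whose symbol fits that pattern, 224 of 9699. No measured value entered this choice by symbol, but the authors had kept only genes with enough reads in both assays in a condition. The members are thus the ZNF genes that passed that filter, and not the whole class. RefSeq carries 216 of them under the same symbol and 8 under a newer one, among them ZNF238 (now ZBTB18), ZNF259 (ZPR1) and ZNF192 (ZKSCAN8). The name marks the zinc finger and not a function, and several members, such as the ribosome factor ZNF622 and the spindle protein ZNF207, are not known mainly as transcription factors.

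A classical zinc finger is a short loop in which paired cysteines and paired histidines hold a zinc ion, and a string of such fingers reads a stretch of DNA. Many ZNF proteins also carry a KRAB domain, which binds the corepressor TRIM28; TRIM28 in turn recruits the histone methyltransferase SETDB1 and the HP1 proteins and so silences transposons and other targets. The family expanded by tandem duplication, and near-identical neighbours are common.

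RNA-Seq and Ribo-Seq, which sequences the mRNA fragments that ribosomes protect, were run on BJ cells, human foreskin fibroblasts immortalised with hTERT. The 17 samples (9 RNA-Seq, 8 Ribo-Seq) cover 5 conditions: proliferation, quiescence after serum depletion, pre-senescence at 5 days and senescence at 14 days of RASG12V expression induced with 4-OHT-Tamoxifen, and transformed cells. The transformed cells carried hTERT, p16INK4A and p53 knockdowns, SV40 small T and a retroviral RASG12V, so that, hTERT being common to all the cells, they differ from the proliferating ones by the knockdowns and small T as well as by RAS. The libraries came from 2 sequencing runs, each with its own proliferation control. Run 1 held proliferation, quiescence and pre-senescence, run 2 held proliferation, senescence and transformed cells, and each condition was compared with the control of its run. The table has 12 columns, 6 per assay, and 5 of them combine 2 libraries into 1 value. The pre-senescence Ribo-Seq column is a single library, whereas its RNA-Seq column and both columns of its control combine 2. No group had replicate columns, so no test of significance, SD or n could be given, and every difference below is a difference between single columns without a replicate check. The table holds FPKM, with values under 1 set to 1, and no read count per gene, so the depth behind single values cannot be given; the read totals per library that the study lists were not used here.

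The labels of the Ribo-Seq samples titled C3.rp and S.rp name each other's condition, and the titles, which name the table's columns, were followed here. In the senescence columns so chosen, the proliferation marker MKI67 was at the floor of 1 FPKM in both assays, against 44.0 (RNA-Seq) and 43.0 (Ribo-Seq) in proliferation of run 2, and CDKN1A RNA was at 814 against 172. All 8 fibroblast markers on the list used (COL1A1, COL1A2, COL6A1, VIM, FN1, THY1, PDGFRB, S100A4) were in the table. COL1A1 RNA nevertheless ranged from 51.6 in senescence to 1328 FPKM in proliferation of run 2, and was at 371 in proliferation of run 1. CDKN2A RNA, whose locus encodes p16INK4A, was at 6.75 FPKM in proliferation of run 2 and 12.6 in transformed cells. In the cells labelled with its knockdown it was thus not lower than in the control of their run. The CDKN2A Ribo-Seq level was lower there than in that control, with a ratio to RNA lower by 1.60 on the log2 scale. CDKN2A RNA also differed between the controls, with run 2 lower than run 1 by 1.35 on that scale. HRAS RNA was at 2415 FPKM in proliferation of run 1 and 1284 in that of run 2, against 312 in transformed cells, and so was not higher in the transformed cells; whether the proliferating cells carried the inducible RAS construct is not given in the labels. Of the other markers, none of the epithelial and endothelial lists was among the analysed genes, and of the immune list only CD68 was.

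The ZNF genes were expressed at low levels in both assays. Their median RNA level was between 3.42 and 4.18 FPKM over the 6 RNA-Seq columns, against 12.5 to 14.2 for the other genes, and their median Ribo-Seq level was between 2.81 and 3.30 against 14.8 to 17.0. FPKM is scaled by transcript length in RNA-Seq and by coding length in Ribo-Seq, so that levels can be compared between genes of different length. Only uniquely mapped reads were kept, so members with near-identical paralogs may have lost reads. The part of this in the low levels was not tested. Between 11 and 19 members per RNA-Seq column lay above the median of all genes. From 5 to 8 members per RNA-Seq column were at the floor of 1 FPKM, and from 12 to 43 per Ribo-Seq column. The floor took 2.74% to 5.73% of all genes in the Ribo-Seq columns but 5.36% to 19.2% of the members, with the most in pre-senescence and the fewest in proliferation of run 2. After a filter on a mean of 2 FPKM over the columns of an assay, 183 members stayed for RNA-Seq, 160 for Ribo-Seq and 148 for both; 41, 64 and 76 did not pass and are not counted in the shares below.

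By mean RNA level the order was led by ZNF622, ZNF259, ZNF598, ZNF146, ZNF703 and ZNF217. ZNF622, a factor in the maturation of the large ribosomal subunit, had 26.5, 30.9, 44.0, 25.6, 59.5 and 25.04 FPKM of RNA in proliferation of run 1, quiescence, pre-senescence, proliferation of run 2, senescence and transformed cells. ZNF259, which encodes the ZPR1 protein, had 35.9, 29.2, 50.2, 19.4, 34.1 and 25.4 FPKM in the same order. ZNF598, the ubiquitin ligase that senses collided ribosomes, had 35.0, 26.2, 34.5, 19.2, 24.0 and 28.2 FPKM. The first 3 places thus went to members that act on ribosomes or outside DNA binding. ZNF146, a protein made almost wholly of zinc fingers, ranged from 18.96 to 31.2 FPKM and ZNF703, a corepressor studied as an oncogene of breast cancer, from 17.7 to 31.6. ZNF217 reached its place through a single column, at 77.8 FPKM in transformed cells and 9.71 to 14.1 in the others. Only 8 members had a mean RNA level of 20 FPKM or more, and 85 had 5 or more.

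The ribosome side was led by other members. ZNF207 (BuGZ), which binds spindle microtubules and the checkpoint protein BUB3, had 97.0, 81.0, 82.2, 89.8, 97.1 and 114 FPKM of Ribo-Seq in the same order of conditions, with 12.8 to 18.0 FPKM of RNA. ZNF706, one of the smallest members, had 65.1, 27.5, 28.3, 59.9, 57.2 and 118 FPKM of Ribo-Seq on 5.74 to 7.74 FPKM of RNA. ZNF460 had 18.8 to 40.1 FPKM of Ribo-Seq on only 1.47 to 5.10 FPKM of RNA. These were the 3 members whose translation efficiency (TE, the log2 ratio of the Ribo-Seq to the RNA-Seq level of a gene) was 1 or more in all 6 conditions.

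Most ZNF genes sat at the other end. The median TE of the 148 members was -0.26, -0.34, -0.28, -0.12, -0.13 and -0.34 in proliferation of run 1, quiescence, pre-senescence, proliferation of run 2, senescence and transformed cells. The median of the other genes was 0.42, 0.36, 0.27, 0.45, 0.36 and 0.38 in the same order. Members were 0.49 to 0.71 below the other genes on the log2 scale, and between 70.9% and 77.7% of them lay under the median of all genes in a given condition. In 66 of the 148 TE was under that median in all 6 conditions, and in 15 it was above it in all 6. As members have low levels, the comparison was repeated, in an alternative chosen after the data were seen, among genes with a mean RNA level of 2 to 10 FPKM only. There the 119 members were 0.36 to 0.62 below the 2948 others. Among genes with a mean of 5 FPKM or more in both assays the gap was 0.36 to 0.63, although the members' own median moved to 0.018 in proliferation of run 1. The gap was thus also present among genes of the same level range, and the part of read mappability in it was not tested.

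The members with a TE of -1 or less in all 6 conditions were ZNF146, ZNF358, ZNF532, ZNF639, ZNF76 and ZNF768. ZNF358 was the extreme case, with TE between -3.66 and -2.30, from RNA of 6.31 to 44.2 FPKM and Ribo-Seq of 1.00 (the floor, in senescence) to 4.83 FPKM. ZNF768 varied least among these, with TE of -1.35, -1.36, -1.67, -1.52, -1.70 and -1.72. ZNF146 had TE of -1.10 in proliferation of run 1 and between -2.69 and -1.58 in the other conditions, on RNA of 18.96 to 31.2 FPKM.

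How far single columns can be trusted was read from the pair of proliferation controls, which differ by run but not by condition. The run 1 control combines 2 libraries per assay, and that of run 2 is a single library. Per the study's sample list, the RNA libraries of run 1 were sequenced paired-end and those of run 2 were not. These differences cannot be told apart from that of the run. Across the 183 members, a set of genes and not of replicates, the correlation of RNA level between these controls was 0.90 (Pearson, log2) against 0.94 over all 9203 genes. For Ribo-Seq it was 0.72 over 160 members against 0.92 over all, and for TE 0.68 over 148 members against 0.84. A correlation also depends on the range of levels in the set, so the spread of the differences is given beside it. The SD over genes of the log2 difference between the controls was 0.44 for members and 0.62 for all genes in RNA. It was 0.92 and 0.84 in Ribo-Seq, and 0.83 and 0.61 in TE. Between proliferation run 2 and run 1, 1 member was 2-fold or more higher in RNA (4.72% of all genes) and 3 were lower (3.05%). In Ribo-Seq 19 members were higher (10.4% of all) and 27 lower (8.30%), which is 11.9% and 16.9% of the 160. In TE 20 were higher (5.57% of all) and 14 lower (3.44%). Counting a gene when both assays moved 1.5-fold or more in the same direction gave 4 higher (8.30%) and 17 lower (8.87%). More members were thus called between the controls in Ribo-Seq and TE than in any of the 4 comparisons of conditions below, which had 12 to 39 in Ribo-Seq and 7 to 32 in TE, while in RNA these had 1 to 15 against 4 here. The 17 lower members included ZNF205, ZNF276 and ZNF787, all past 2-fold in both assays, and the ribosome factor ZNF598, and the higher ones included ZNF880, which went from 1.48 to 4.62 FPKM of RNA.

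**Figure D1:**
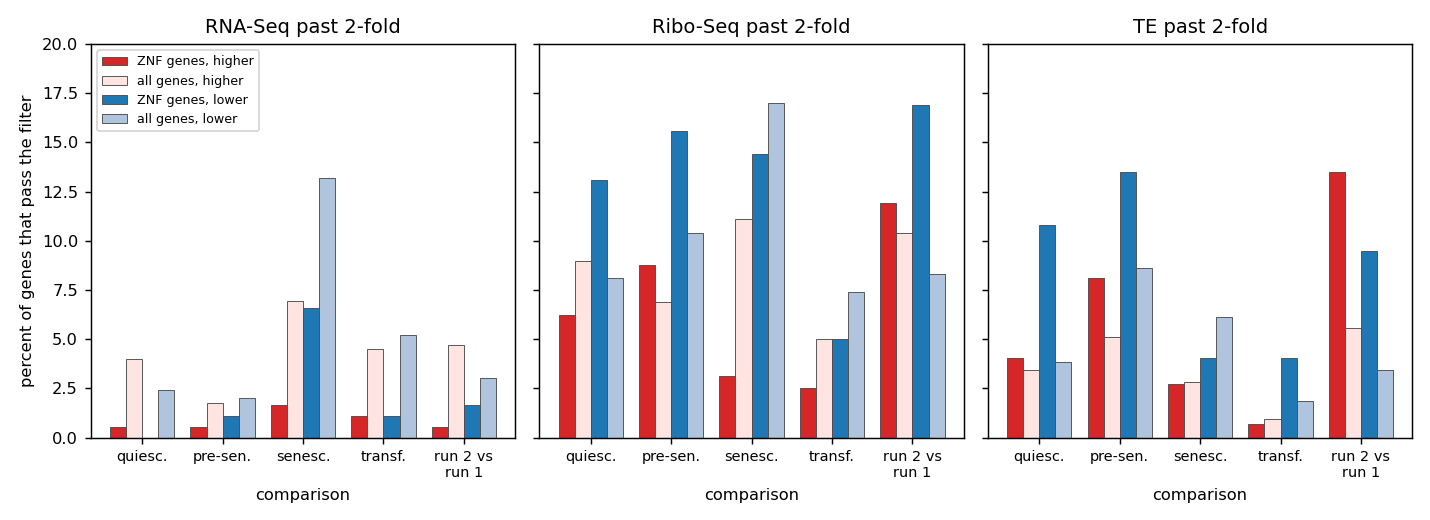
Percent of genes that passed the filter and differed 2-fold or more, in RNA-Seq, Ribo-Seq and TE, for ZNF genes (dark bars) and all genes (pale bars), higher (red) and lower (blue), in each comparison with the control of its run and between the controls. The RNA bars of ZNF genes are below those of all genes in each comparison, whereas in Ribo-Seq and TE several lie above, also between the controls.

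Serum depletion left ZNF RNA levels nearly as they were. In quiescence 1 of 183 members was 2-fold or more higher in RNA than in proliferation of run 1 and none was lower, against 4.00% and 2.43% of all genes. The median log2 difference was 0.05 for members and -0.01 for all genes. In these bulk samples, fewer cells with a transcript and less of it per cell cannot be told apart. The single called member was ZNF521, a cofactor that restrains the factor EBF1 in progenitor cells. Its RNA was at 5.22 FPKM in the control and 10.7 in quiescence, a 2.04-fold difference that falls under 2-fold when 1 FPKM is added to each value. Its Ribo-Seq level was 2.71 in the control and 2.28 in quiescence, too low to pass the filter.

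Ribo-Seq moved more widely. It was 2-fold or more higher in 10 of 160 members (8.98% of all genes) and lower in 21 (8.13%), and TE was higher in 6 of 148 (3.43%) and lower in 16 (3.82%). With the median of all genes set to 0 the TE counts were 9 higher and 14 lower. The difference was larger than that of the same gene between the controls, which share the run 1 column, in 42.5% of the 160 members (49.2% of all genes) in Ribo-Seq and in 46.6% of the 148 (48.9%) in TE. Both assays moved 1.5-fold or more together in just 3 members, 1 higher (7.88%) and 2 lower (6.58%). The higher one, ZNF627, had RNA of 2.23 FPKM in proliferation of run 1 and 3.70 in quiescence, with Ribo-Seq of 1.55 and 3.63. The lower ones were ZNF238 and ZNF724P. ZNF238 (ZBTB18), a repressor best known from neuron development, had RNA of 8.22 and 5.03 and Ribo-Seq of 5.51 and 1.40. ZNF724P had RNA of 3.01 and 1.94 and Ribo-Seq of 2.61 and the floor. Smaller RNA differences went with Ribo-Seq in ZNF358 (29.8 and 44.2 FPKM), ZNF302 (3.34 and 4.78) and ZNF101 (3.19 and 2.15).

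The highest TE difference in quiescence among members above the floor in all values was that of ZNF557, whose RNA was at 2.23 and 1.92 FPKM and whose Ribo-Seq level was at 1.31 and 4.56, a TE difference of 2.02. ZNF215 followed with a difference of 1.49, on Ribo-Seq levels of 1.59 and 4.88. The lowest were ZNF549 at -1.62, with Ribo-Seq of 3.54 and 1.34, and ZNF146 at -1.59, with 12.5 and 4.35. In proliferation of run 2 their Ribo-Seq levels were 3.49 (ZNF557), 3.47 (ZNF215), 1.59 (ZNF549) and 3.31 FPKM (ZNF146), so that in all 4 that control lay closer to quiescence than to the control of run 1. ZNF706 was also lower in TE, by 1.32, with Ribo-Seq of 65.1 and 27.5, and here both proliferation columns were high.

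The same was seen after 5 days of RASG12V. In pre-senescence 1 of 183 members was 2-fold or more higher in RNA (1.75% of all genes) and 2 were lower (2.00%), with a median difference of -0.01 for members and 0.04 for all genes. The higher member, ZNF792, had 1.88 FPKM in proliferation of run 1 and 4.92 in pre-senescence, 2.62-fold. The lower ones were ZNF362, from 7.01 to 2.47 FPKM, and ZNF367, from 12.1 to 4.94. In Ribo-Seq 14 of 160 were higher (6.88%) and 25 lower (10.4%), and in TE 12 of 148 were higher (5.09%) and 20 lower (8.60%). All genes had a median difference of -0.12 in Ribo-Seq and -0.15 in TE here, and the members' median TE difference of -0.14 became 0.0090 once that shift was taken off, with 19 TE calls higher and 18 lower. Of the 32 TE calls, 4 had a value at the floor. In TE 61.5% of the members, and 58.7% of all genes, differed by more than they did between the controls.

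Both assays moved together in 7 members in pre-senescence, 2 higher (3.17% of all genes) and 5 lower (4.31%). The higher ones were ZNF697, with RNA of 5.60 and 10.9 FPKM and Ribo-Seq of 4.84 and 17.2, and ZNF267, with RNA of 2.88 and 4.56 and Ribo-Seq of 1.35 and 2.70. ZNF618 had RNA of 2.86 and 4.11 and Ribo-Seq of the floor and 1.99. The lower ones were ZNF238, ZNF358, ZNF362, ZNF367 and ZNF703. ZNF362 had Ribo-Seq of 5.56 and 1.06 FPKM, and ZNF367 of 27.3 and 17.5. The largest TE differences belonged to members whose RNA differed by less than 1.5-fold. All TE differences in pre-senescence rest on its single Ribo-Seq library. ZNF692 (AREBP, a repressor of gluconeogenesis genes) had RNA of 9.53 and 8.96 FPKM but Ribo-Seq of 1.99 and 13.9, and its Ribo-Seq level stayed between 1.05 and 3.15 in the other 4 conditions. ZNF22, linked to tooth development, had RNA of 14.6 and 10.4 but Ribo-Seq of 39.8 and 2.98, a TE difference of -3.26. ZNF561 had RNA of 5.25 and 6.54 and Ribo-Seq of 6.03 and 1.15. Among these, ZNF22 had its lowest Ribo-Seq levels in pre-senescence and senescence. Its level was also below that of proliferation of run 1 in quiescence, by 2.16-fold, and in proliferation of run 2, by 3.18-fold. ZNF561 was at or near the floor in quiescence too.

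**Figure D2:**
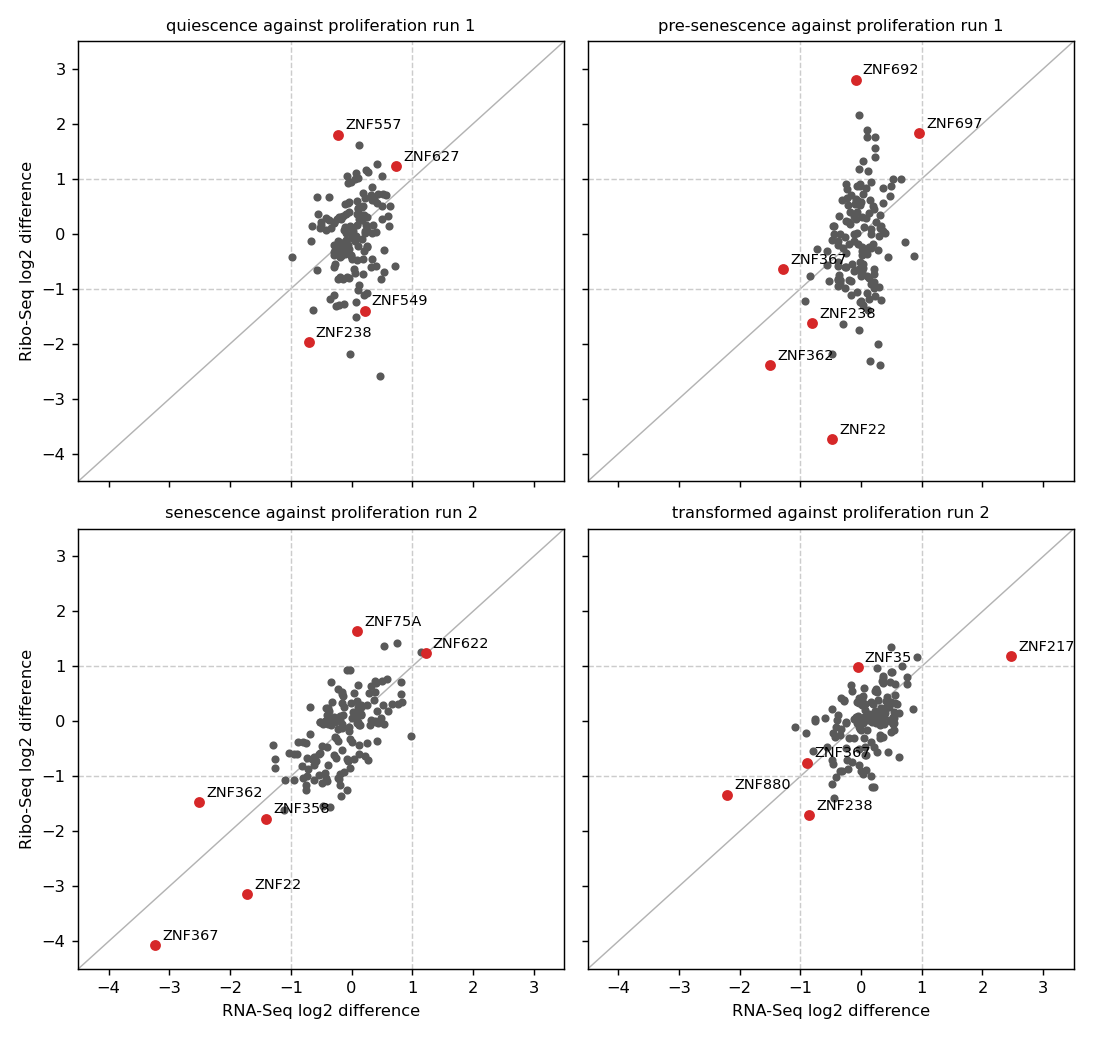
Log2 difference in RNA-Seq (x axis) and Ribo-Seq (y axis) of the 148 ZNF genes that passed both filters, 1 panel per comparison; dashed lines mark 2-fold, the grey diagonal marks equal differences, and red points are named. In the run 1 comparisons the points spread along the Ribo-Seq axis, and in senescence ZNF367, ZNF22, ZNF362 and ZNF358 lie at the lower left with ZNF622 at the upper right.

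Senescence, at 14 days of RASG12V, had the most RNA calls of the 4 conditions, among members as among all genes. In Ribo-Seq and TE it had fewer members called than quiescence or pre-senescence. In RNA 3 of 183 members were 2-fold or more higher (6.94% of all genes) and 12 lower (13.2%), and the median difference was -0.16 for members and -0.01 for all genes. In Ribo-Seq 5 of 160 were higher (11.1%) and 23 lower (17.0%), or 8 and 14 with the median of all genes set to 0. TE was higher in 4 of 148 (2.83%) and lower in 6 (6.13%). Both assays moved together in 28 members, 5 higher (11.5%) and 23 lower (17.9%). Against the control of the other run 37 of the 183 were called in RNA, a count given without the share of all genes under that setting. The difference was larger than that of the same gene between the controls in 50.8% of members and 60.8% of all genes in RNA, in 41.25% and 56.2% in Ribo-Seq, and in 45.9% and 53.6% in TE.

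The lower members in senescence were led by ZNF367, once described as an activator of fetal globin genes. Its RNA was at 12.1 FPKM in proliferation of run 1, 6.10 in quiescence, 4.94 in pre-senescence, 9.41 in proliferation of run 2, at the floor of 1 in senescence, and 5.06 in transformed cells. Its Ribo-Seq level was 27.3, 20.4, 17.5, 16.9, the floor, and 10.0 FPKM in the same order. In RNA all 4 other conditions lay below both controls, and in Ribo-Seq only senescence and transformed cells did. In senescence it was at least 9.41-fold lower in RNA and at least 16.9-fold lower in Ribo-Seq. MKI67, CDK1 and CCNB1, genes of the cell cycle, had their lowest RNA in the same column, at 1.00 (the floor), 1.00 (the floor) and 5.65 FPKM, and their part in the ZNF367 value was not tested.

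ZNF362 had RNA of 5.69 FPKM in proliferation of run 2 and the floor in senescence, at least 5.69-fold lower, with Ribo-Seq of 2.77 and the floor. ZNF22 had RNA of 8.19 and 2.49, 3.29-fold lower, and Ribo-Seq of 12.5 and 1.42, so that its TE was lower as well, by 1.42. ZNF22 was thus lower in Ribo-Seq at both RAS times, with RNA past 2-fold lower only at the later one. Its Ribo-Seq level was past 2-fold lower in quiescence too, and between the controls. ZNF358 had RNA of 16.8 and 6.31 and Ribo-Seq of 3.41 and the floor. Further members called lower in RNA were ZNF236, ZNF292, ZNF496, ZNF507, ZNF511, ZNF521, ZNF532 and ZNF724P, all between 2.04-fold and 2.44-fold; 4 of these had a value at the floor in an assay.

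The 3 members called higher in RNA in senescence were ZNF622, ZNF274 and ZNF841. ZNF622 had RNA of 25.6 FPKM in proliferation of run 2 and 59.5 in senescence, 2.33-fold, and Ribo-Seq of 46.9 and 111. Its TE was 0.88 and 0.89, so that RNA and ribosome occupancy were higher in the same proportion. ZNF274, a KRAB protein that brings SETDB1 to the 3′ ends of other ZNF genes, had RNA of 5.67 and 12.5 and Ribo-Seq of 5.20 and 12.4, with TE of -0.12 and -0.01. In the other conditions its RNA stayed between 4.13 and 8.37 FPKM, and senescence was its highest column in both assays. ZNF841 had RNA of 2.76 and 7.56, with Ribo-Seq of 1.47 and 2.82. ZNF121, ZNF319 and ZNF616 were 1.5-fold or more higher in both assays, ZNF121 with RNA of 3.36 and 5.93 and Ribo-Seq of 7.07 and 11.6.

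TE differences of members were narrower in senescence than in the run 1 comparisons. Their SD was 0.54, against 0.72 in quiescence, 0.91 in pre-senescence and 0.83 between the controls. Over all genes this was not so, with an SD of 0.63 in senescence, 0.55 in quiescence, 0.72 in pre-senescence and 0.61 between the controls. The highest TE difference of a member in senescence was that of ZNF75A. Its Ribo-Seq level was 1.63 in proliferation of run 2 and 5.07 in senescence, but 4.54 in proliferation of run 1. Against that control the difference turned to -0.13. ZNF251 followed at 1.05, on Ribo-Seq of 1.73 and 2.85. At the other end ZNF593, another factor of the large ribosomal subunit, had RNA of 6.40 and 12.7 but Ribo-Seq of 24.4 and 20.3, a TE difference of -1.25.

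The pre-senescence and senescence comparisons use different controls and runs. Of the members past 1.5-fold higher in RNA, 7 in pre-senescence and 16 in senescence, 4 were in both, which is 57.1% of the first list and 25% of the second: ZNF462, ZNF622, ZNF697 and ZNF792. Of those past 1.5-fold lower, 6 in pre-senescence and 37 in senescence, 4 were in both, 66.7% and 10.8%: ZNF238, ZNF358, ZNF362 and ZNF367. Over all genes 298 were higher in both, 58.0% of 514 and 17.5% of 1699, and 475 were lower in both, 76.4% of 622 and 22.9% of 2077, and the members' shares were not tested against these. ZNF238 had RNA of 8.22 and 7.02 FPKM in the controls and 5.03, 4.70, 4.01 and 3.87 in quiescence, pre-senescence, senescence and transformed cells, with Ribo-Seq of 5.51 and 3.74 in the controls and 1.40, 1.78, 2.12 and 1.15 in the others. It was the only member past 1.5-fold in both assays and in the same direction in all 4 comparisons, although its control columns are shared between pairs of comparisons. No member was past 2-fold in RNA in one direction in 3 or more of them.

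**Figure D3:**
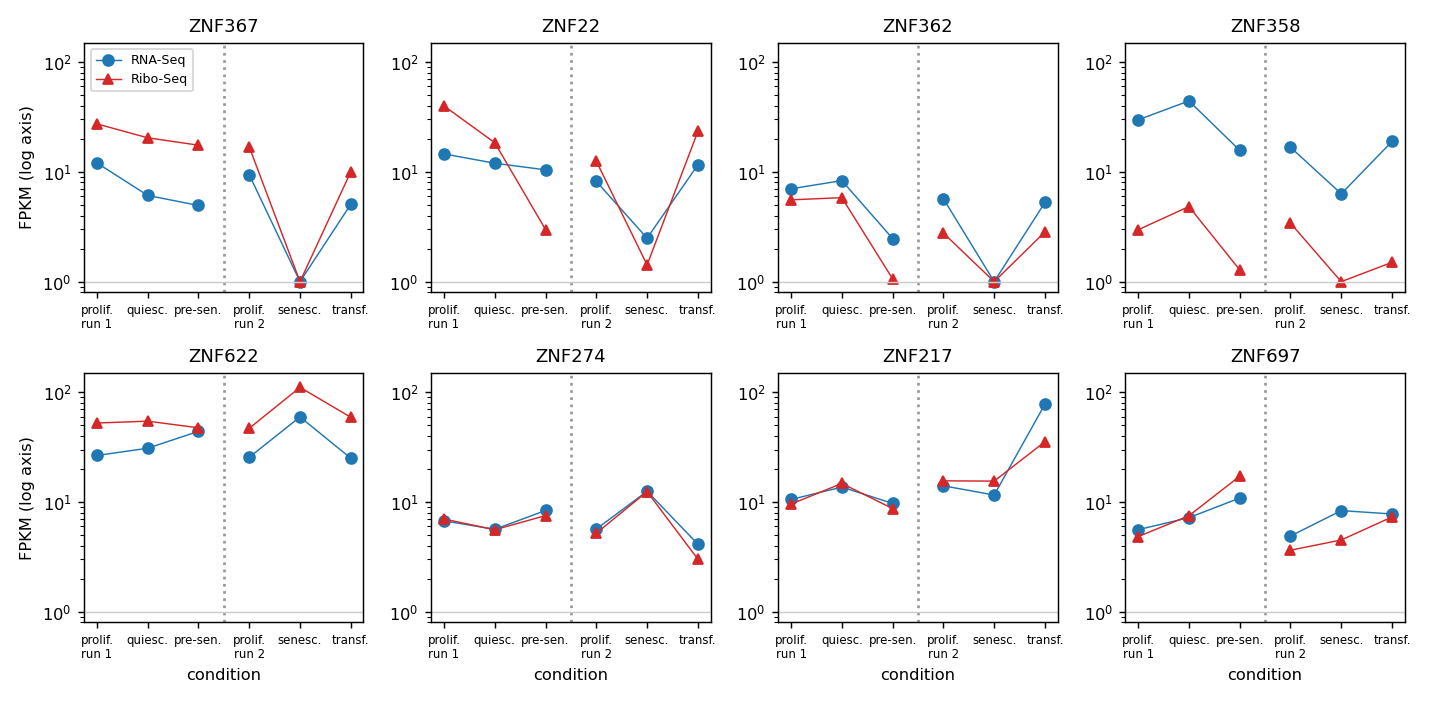
RNA-Seq (blue circles) and Ribo-Seq (red triangles) levels, in FPKM on a log axis, of 8 ZNF genes in the 6 conditions, with 1 value per point; the dotted line separates run 1 from run 2 and the grey line is the floor of 1 FPKM. ZNF367 and ZNF362 reach the floor in senescence, ZNF622 and ZNF274 have their highest point there, and ZNF217 has its highest point in transformed cells.

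Promoters of some of the members named above are shown so that the regions can be compared. They are the 250 bases before the RefSeq start (build GRCh38.p14), written 5′ to 3′ on the gene's strand, with capitals for the motifs searched, namely the ETS core CGGAAG, the E2F sites TTTCCCGC and TTTGGCGC, the ZNF143 site ACTACAA, the NF-Y box CCAAT, the TATA box TATAAA and the AP-1 site TGACTCA, each on both strands. ZNF367 (chr9:96418371-96418620, minus strand) has an E2F match that begins 21 bases before the start and 2 CCAAT boxes.
ZNF367: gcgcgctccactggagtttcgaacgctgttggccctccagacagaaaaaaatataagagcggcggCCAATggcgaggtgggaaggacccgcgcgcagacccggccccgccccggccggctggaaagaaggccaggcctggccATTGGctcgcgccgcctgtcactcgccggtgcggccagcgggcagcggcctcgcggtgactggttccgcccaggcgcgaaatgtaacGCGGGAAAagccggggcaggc
ZNF22 (chr10:45000673-45000922, plus strand) has 1 ETS core.
ZNF22: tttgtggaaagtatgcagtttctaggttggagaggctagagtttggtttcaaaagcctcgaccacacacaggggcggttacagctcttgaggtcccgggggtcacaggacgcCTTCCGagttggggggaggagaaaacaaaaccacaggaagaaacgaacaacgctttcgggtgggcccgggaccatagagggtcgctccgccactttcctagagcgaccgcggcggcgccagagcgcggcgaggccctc
ZNF622 (chr5:16465801-16466050, minus strand), one of the members called higher in RNA in senescence, has 2 ETS cores, on opposite strands, near the start.
ZNF622: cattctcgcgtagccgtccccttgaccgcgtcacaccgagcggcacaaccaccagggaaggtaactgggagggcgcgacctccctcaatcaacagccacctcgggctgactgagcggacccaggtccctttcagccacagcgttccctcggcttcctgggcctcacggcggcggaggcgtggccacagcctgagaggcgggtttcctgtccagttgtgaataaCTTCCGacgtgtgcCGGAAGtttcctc
ZNF217 (chr20:53593840-53594089, minus strand), one of the members called higher in RNA in transformed cells, has no match to these letters.
ZNF217: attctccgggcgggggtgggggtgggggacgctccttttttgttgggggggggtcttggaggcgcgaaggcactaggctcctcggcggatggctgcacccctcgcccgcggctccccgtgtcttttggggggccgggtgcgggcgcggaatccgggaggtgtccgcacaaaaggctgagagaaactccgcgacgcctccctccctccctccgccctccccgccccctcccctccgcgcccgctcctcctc

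Over the windows of 300 bases around the start, 50 of them after it, 194 of the 224 members had a RefSeq promoter. The ETS core was in 59.3% of them, against 35.6% of the 8028 matched genes of the table and 19.9% of all 27305 promoters. The NF-Y box was in 48.5% (37.3% and 35.7%) and the ZNF143 site in 7.73% (4.19% and 2.95%). TATAAA was in 2.58% (5.13% and 11.95%), the AP-1 site in 2.58% (2.84% and 4.92%), and the E2F sites TTTCCCGC and TTTGGCGC in 2.58% (2.88% and 1.66%) and 1.55% (1.15% and 0.66%). The 5 members with TTTCCCGC were ZNF101, ZNF367, ZNF644, ZNF687 and ZNF816. Their RNA differences in senescence ran from -3.23 (ZNF367) to 0.83, with a median of 0.12. Members with the ETS core had a median RNA difference in senescence of -0.07 (96 members) and those without of -0.23 (63). A match describes the letters in the window and not a bound site.

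In transformed cells the ZNF genes again moved little in RNA. Of 183 members 2 were 2-fold or more higher (4.49% of all genes) and 2 lower (5.20%), with a median difference of 0.10 for members and 0.09 for all genes. In Ribo-Seq 4 of 160 were higher (5.02%) and 8 lower (7.42%), and in TE 1 of 148 was higher (0.935%) and 6 lower (1.87%), or 2 and 5 with the median of all genes set to 0. Both assays moved together in 9 members, 5 higher (7.56%) and 4 lower (8.47%). The difference was larger than that between the controls in 43.2% of members and 46.7% of all genes in RNA, in 31.25% and 41.1% in Ribo-Seq, and in 41.9% and 40.7% in TE.

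The largest of these was ZNF217, an oncogene of breast cancer whose protein works in CtBP and CoREST repressor complexes. Its RNA was at 10.6, 13.7, 9.71, 14.1, 11.6 and 77.8 FPKM in proliferation of run 1, quiescence, pre-senescence, proliferation of run 2, senescence and transformed cells, and its Ribo-Seq level at 9.58, 14.8, 8.72, 15.6, 15.5 and 35.4. The 5 other columns stayed within 9.71 to 14.1 FPKM of RNA, and transformed cells were 5.54-fold above their control. Ribo-Seq was 2.27-fold above, so that TE was lower by 1.29, the only condition in which ZNF217 had a TE under -1. ZNF792 had RNA of 1.13 FPKM in proliferation of run 2 and 4.68 in transformed cells, with a Ribo-Seq level too low to pass the filter. ZNF212, ZNF512, ZNF697 and ZNF710 were 1.5-fold or more higher in both assays. ZNF212 had RNA of 3.11 and 5.90 and Ribo-Seq of 2.54 and 5.74, and ZNF512 had RNA of 7.85 and 13.3 and Ribo-Seq of 12.04 and 19.3.

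The lower members in transformed cells were ZNF880 and ZNF292. ZNF880 had RNA of 4.62 FPKM in proliferation of run 2 and the floor in transformed cells, at least 4.62-fold lower, with Ribo-Seq of 7.89 and 3.13. In proliferation of run 1, however, its RNA was at 1.48, so that most of the difference lay within the gap between the controls. ZNF292 had RNA of 4.25 and 1.99 with Ribo-Seq of 3.94 and 3.66, and its RNA was also low in senescence, at 1.77. Its TE difference in transformed cells was 0.99. ZNF238, ZNF192 and ZNF367 were 1.5-fold or more lower in both assays, ZNF192 with RNA of 5.50 and 3.01 and Ribo-Seq of 6.62 and 3.91. The lowest TE differences were those of ZNF397 at -1.42 and ZNF358 at -1.36, and the only call in the other direction was ZNF35 at 1.04; ZNF397 and ZNF35 changed sign against the other control. ZNF706 had its highest Ribo-Seq level here, 118 FPKM, with RNA of 6.90.

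Ordered by role, the members that work on RNA, ribosomes or the spindle were a list of 12, of which 10 passed the RNA filter. They had 1 RNA call in the 4 comparisons, ZNF622 higher in senescence (6.94% of all genes). Their median RNA difference was -0.20 in quiescence, 0.15 in pre-senescence, 0.20 in senescence and 0.12 in transformed cells. ZNF326, a subunit of the DBIRD complex that couples transcription to splicing, was the lowest of them in senescence, with RNA of 11.2 and 6.70 FPKM and Ribo-Seq of 28.5 and 14.3. ZNF330, a nucleolar protein, had RNA of 12.2 to 16.0 and Ribo-Seq of 20.9 to 37.0 over the 6 conditions. ZNF346 (JAZ), which binds double-stranded RNA and is the only one of the 8 p53-linked ZNF genes on the list that was analysed here, had RNA of 2.56 to 3.27 and Ribo-Seq of 4.54 to 7.50, with no call in any measure. ZNF638, a splicing and chromatin protein, had RNA of 10.4 to 14.6 and Ribo-Seq of 8.54 to 18.8. ZNF185 and ZNF365 did not pass the RNA filter.

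Of the 18 members listed as subunits or partners of transcription complexes, 14 were in the table and passed the RNA filter. They had 2 RNA calls higher, ZNF521 in quiescence (4.00% of all genes) and ZNF217 in transformed cells (4.49%), and 2 lower, ZNF521 and ZNF532 in senescence (13.2%). In senescence 11 of the 14 lay below 0, with a median of -0.27. ZNF532, which joins ZNF592 and ZNF687 in a complex with ZMYND8, had RNA of 12.2 and 5.02 FPKM with Ribo-Seq of 3.13 and 2.32. ZNF592 had RNA of 6.52 and 5.41 and ZNF687 of 5.79 and 4.85, and neither was called in RNA in the 4 comparisons of conditions, although ZNF592 had a log2 difference of -0.88 in both assays between proliferation of run 2 and that of run 1. ZNF143, an activator found at many promoters and loop anchors, was the highest of the list in senescence, with RNA of 6.08 and 8.05 and Ribo-Seq of 10.3 and 16.6. ZNF148, ZNF281, ZNF384, ZNF451, ZNF644 and ZNF335 had no RNA call. ZNF827, which recruits the NuRD complex to telomeres, had RNA of 4.93 and 2.55 and Ribo-Seq of 4.04 and 1.93 in senescence.

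The corepressors that KRAB zinc finger proteins act through are not members but are their partners. Of 18 listed, 17 were analysed. In senescence none was 2-fold or more higher in RNA (6.94% of all genes) and 5 were lower (13.2%), and in Ribo-Seq none was higher (11.1%) and 7 were lower (17.0%), with medians of -0.68 and -0.77. TRIM28 had RNA of 231, 130, 187, 136, 63.7 and 176 FPKM in proliferation of run 1, quiescence, pre-senescence, proliferation of run 2, senescence and transformed cells. SETDB1 had 8.22, 7.93, 7.62, 6.94, 5.16 and 7.21 FPKM and was not called. UHRF1, a partner of the maintenance methyltransferase DNMT1, had 41.4 FPKM in proliferation of run 2 and 5.43 in senescence, and DNMT1 44.9 and 13.5; both are also known to follow the cell cycle. Quiescence had 2 of the 17 lower in RNA (2.43% of all genes), pre-senescence none (2.00%) and transformed cells 1 (5.20%). None was higher in these comparisons, against 4.00%, 1.75% and 4.49% of all genes in the same order. TRIM28 also differed between the controls, at 231 and 136 FPKM, and its senescence level of 63.7 was under both.

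By RefSeq's location (GRCh38.p14), 95 of the 224 members (42.4%) lie on chromosome 19, against 6.26% of the 9627 located genes of the table. The median RNA level of these 95 was 2.39 to 2.59 FPKM over the 6 conditions, that of the 129 members elsewhere 4.28 to 5.87, and that of the other 508 genes of chromosome 19 from 19.045 to 23.9. Members were thus lower than their neighbours on the chromosome, and lower there than elsewhere in the genome. In TE the members on chromosome 19 and those elsewhere were close, with medians of -0.26 and -0.30 in proliferation of run 1 and -0.04 and -0.12 in that of run 2. The other genes of chromosome 19 had higher medians, 0.37 in proliferation of run 1 and 0.22 in that of run 2. Their median was also higher in quiescence, pre-senescence and transformed cells. In senescence it was not, at -0.08 against -0.06 for the members on chromosome 19 and -0.16 for those elsewhere. In senescence the median RNA difference was 0.10 for the 62 chromosome 19 members that passed the filter and -0.23 for the 121 elsewhere. Of these, 3 of the 62 and 9 of the 121 were called lower, against 13.2% of all genes. The other genes of chromosome 19 had a median of 0.06, with 50 of 486 called lower, and the differences between these groups were not tested. Reads were kept only where they mapped to a single place, so members with near-identical paralogs, which are common in the clusters of chromosome 19, may have lost reads, and their levels are uncertain.

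Other families of zinc finger genes were set beside the ZNF genes for scale. The median RNA level in proliferation of run 1 was 3.72 FPKM for the ZNF genes, 3.41 for 10 ZSCAN and ZKSCAN genes, 7.06 for 23 ZBTB genes and 5.09 for 12 KLF genes. Their median TE there was -0.26, 0.00, -0.08 and 0.59. In proliferation of run 2 the median RNA levels were 3.79, 2.77, 5.01 and 6.24 FPKM and the median TE -0.12, 0.16, 0.24 and 0.30 in the same order, so that ZBTB and KLF genes changed places in RNA. In senescence 6 of 12 KLF genes and 3 of 21 ZBTB genes were 2-fold or more lower in RNA, against 12 of 183 ZNF genes and 13.2% of all genes, and these differences between families were not tested.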

How the data were processed

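RNA-Seq and Ribo-Seq values of BJ fibroblasts were taken from the one table the authors deposited, with 9699 transcripts (1 per gene, with the longest coding sequence, Ensembl annotation) and 12 columns. Per the study's methods, reads were aligned with Bowtie, only uniquely mapped reads were kept, and the submitters' notes name build hg19. The authors deposited FPKM, over the whole transcript for RNA-Seq and over the coding sequence for Ribo-Seq, with values under 1 set to 1, and kept genes with enough reads in both assays in a condition. How 2 libraries were combined in 5 of the columns is not given in the sources used here.

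Samples were grouped by GEO title and label. Log2 differences and TE, log2(Ribo-Seq FPKM / RNA-Seq FPKM), were computed from the FPKM values with no pseudocount, among genes with a mean of 2 FPKM or more (Python 3.11.15, pandas 2.3.3, numpy 2.4.6, matplotlib 3.10.9). With 1 column per group no test applies; a gene was called at 2-fold, or at 1.5-fold in the same direction in both assays, and the steps were tested on simulated data. A fold against a value at the floor is a lower bound. The table gives no read counts per gene, and the read totals per library in the study's supplement, a measure of depth, were not used here, so no counting interval was computed.

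Genes named are the 6 with the highest mean RNA, the 3 with the largest RNA difference in each direction and comparison among those whose Ribo-Seq level moved 1.5-fold the same way, the 2 highest and 2 lowest TE differences above the floor, members past 2-fold in 3 or more comparisons, the role lists (RNA, ribosome and spindle; transcription complexes; p53-linked) and, after their values were seen, other called members. The members and lists, with the lists of corepressors, cell type markers and state checks, were chosen with earlier results of these data known. One gene of the state checks is not reported here. Alternatives changed the filter, pseudocount, centring, control and fold. Promoters are RefSeq's, on GRCh38.p14, and were matched by symbol; a genome and protein sequences were not used here, so finger number, KRAB domains and coding length were not analysed.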

Additional observations from a re-analysis of the deposited data

How the results depend on the processing

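No paired analysis was possible because each condition has a single column per assay, although the labels number some libraries 1 and 2. For the same reason no replicate was left out; the exchange of the control for that of the other run takes its place.

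Against the other run's control, members past 2-fold in RNA numbered 6 in quiescence, 7 in pre-senescence, 37 in senescence and 10 in transformed cells (main 1, 3, 15 and 4). Ribo-Seq calls became 62 in senescence and 45 in transformed cells (main 28 and 12), and TE calls 36 and 35 (main 10 and 7). Median differences became -0.13 for TE in quiescence, -0.024 for Ribo-Seq in pre-senescence, -0.28 and -0.20 for Ribo-Seq in senescence and transformed cells, and 0.043 for TE in transformed cells. Run and condition cannot be told apart in these values. The counts in this section are of members only, without the share of all genes under the same setting. They show how the calls depend on the setting and not how members compare with other genes. Among the 40 named differences, 3 of those past 2-fold reversed, all in TE: ZNF75A in senescence (-0.13), ZNF35 (-0.34) and ZNF397 (0.13) in transformed cells.

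With a mean of 5 FPKM or more, RNA calls were 1 in pre-senescence, 9 in senescence and 1 in transformed cells. Ribo-Seq calls were 6, 9, 11 and 4 and TE calls 4, 7, 5 and 2 in quiescence, pre-senescence, senescence and transformed cells; fewer genes are tested there. The median Ribo-Seq difference was -0.15 in quiescence and the median TE difference -0.23 in senescence, and the median TE was 0.018 and 0.16 in proliferation of run 1 and run 2. With no filter, TE calls were 34, 54, 17 and 17 and Ribo-Seq calls in transformed cells 19.

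With a pseudocount of 1 FPKM, RNA calls were 0 in quiescence and 9 in senescence, Ribo-Seq calls 12, 23, 14 and 6, and TE calls 10, 17, 5 and 3. At 1.5-fold, RNA calls were 12, 13, 53 and 22, Ribo-Seq calls 65, 93, 70 and 44, and TE calls 55, 70, 40 and 39. Centring on the median of all genes moved the median TE difference in pre-senescence to 0.0090 and, of the named differences, that of ZNF192 RNA in transformed cells, to -0.96. It changed the higher and lower calls from 5 and 23 to 8 and 14 for Ribo-Seq in senescence, from 12 and 20 to 19 and 18 for TE in pre-senescence, from 6 and 16 to 9 and 14 for TE in quiescence, and from 1 and 6 to 2 and 5 for TE in transformed cells. The other counts of calls, summed over both directions, were within 1.5 times those reported under these settings. By direction, the other control gave 18 higher in Ribo-Seq in quiescence (main 10), 22 higher in Ribo-Seq and 32 lower in TE in pre-senescence (main 14 and 20), no filter gave 10 higher in Ribo-Seq in senescence (main 5), and a pseudocount of 1 gave 1 lower in RNA in transformed cells (main 2). The other medians, and the median TE of either control among genes with 2 to 10 FPKM of RNA, moved by less than the members' median difference between the controls. The floor and the low levels of the family limit what Ribo-Seq differences of single members can show.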
